A study of Caenorhabditis elegans with 24 samples.

Results

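The p38 MAP kinase pathway of *Caenorhabditis elegans* was followed through the messenger RNA of 8 genes: the adaptor *tir-1*, the kinases *nsy-1* and *sek-1*, the p38 kinases *pmk-1*, *pmk-2* and *pmk-3*, the transcription factor *atf-7* and the phosphatase *vhp-1*. They were taken by name from the 20191 genes of the expression table, whatever their values, and all 8 passed the filter on low values (at least 0.5 RPKM in at least 4 libraries) together with 12771 genes in all, themselves included. The level of a gene is given in RPKM, the reads mapped to it divided by its transcript length and by the size of the library.

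In this cascade TIR-1, the nematode SARM1 protein, gathers and activates the MAP kinase kinase kinase NSY-1, which phosphorylates the MAP kinase kinase SEK-1, which in turn phosphorylates p38. PMK-1 is the p38 kinase best known for defence: in the intestine it acts through the transcription factor ATF-7 to keep antimicrobial genes switched on, and in the epidermis the same kinases act ahead of small antimicrobial peptides. The pathway signals by phosphorylation, which RNA levels do not show.

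The study asked how quercetin, a plant flavonoid, and lutein, a carotenoid, act on the worm, and how the response depends on *abl-1*, the gene of the Abl tyrosine kinase. Messenger RNA of whole animals was sequenced on day 3 in 24 libraries. Wild type (wt) was strain NV48, recovered from a cross of strains XR1 and GRU102, with 5 untreated libraries, 5 on quercetin and 4 on lutein. The knockout (*abl-1* KO) was strain NV50, which came from the same cross and carries the *abl-1*(ok171) deletion, with 5 untreated libraries and 5 on quercetin. Both compounds were given at 100 µM from eggs in the food bacteria, HT115 carrying the empty vector L4440, and untreated animals received the same DMSO and Tween 80 vehicle. Each genotype was 1 strain, and any other difference between the strains cannot be told apart from the loss of *abl-1*. The study's RNA methods name the 2 strains differently from the sample labels. They call NV48 a strain with neuronal amyloid beta. As the knockout they name another strain, which carries the amyloid beta transgene of GRU102. The study's strain list gives NV48 as wild type. The groups here follow the labels, and presence of the transgene was not tested. The replicates are described as separate biological samples, and p-values measure the spread between them.

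The deletion was visible in the reads of *abl-1* itself, which lay between 6.85 and 7.77 RPKM in the wt libraries and between 1.71 and 2.14 in those of the *abl-1* KO. Estimated depth, read from the step size of low values, ran from 27256000 to 45222000 reads per library. Libraries differed in sperm transcripts: the summed RPKM of the *msp* genes, which code for major sperm proteins, was 620 in untreated *abl-1* KO replicate 2, 442 in *abl-1* KO replicate 2 on quercetin and 337 in wt replicate 4 on quercetin, against a median of 41.8. Defining markers of intestine, neurons, epidermis, muscle and germline were all detected. In whole-animal RNA, fewer cells of a type and less RNA per cell cannot be told apart.

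The transcripts of the cascade were present at very unequal levels, and several steps of their order held in every library. *atf-7* stood far above the rest with a mean of 93.6 RPKM over the 24 libraries, and its lowest library (88.7) was well above the highest of any other member. Then followed *sek-1* with 13.1, *pmk-1* with 10.8, *vhp-1* with 9.16 and *nsy-1* with 8.98 RPKM, and last *pmk-3* with 3.61, *tir-1* with 3.52 and *pmk-2* with 3.25. The step from *atf-7* to *sek-1*, that from *sek-1* to *pmk-1* and that from *nsy-1* to *pmk-3* held within each of the 24 libraries. *vhp-1* exceeded *nsy-1* in 13 libraries, *pmk-3* exceeded *tir-1* in 14 and *tir-1* exceeded *pmk-2* in 18, and the ranges of these neighbours overlapped. RPKM corrects for length, so these levels can be set side by side, but reads shared with overlapping genes may still affect the order. The plot of every library shows the 8 members on axes that start at 0.

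**Figure D1:**
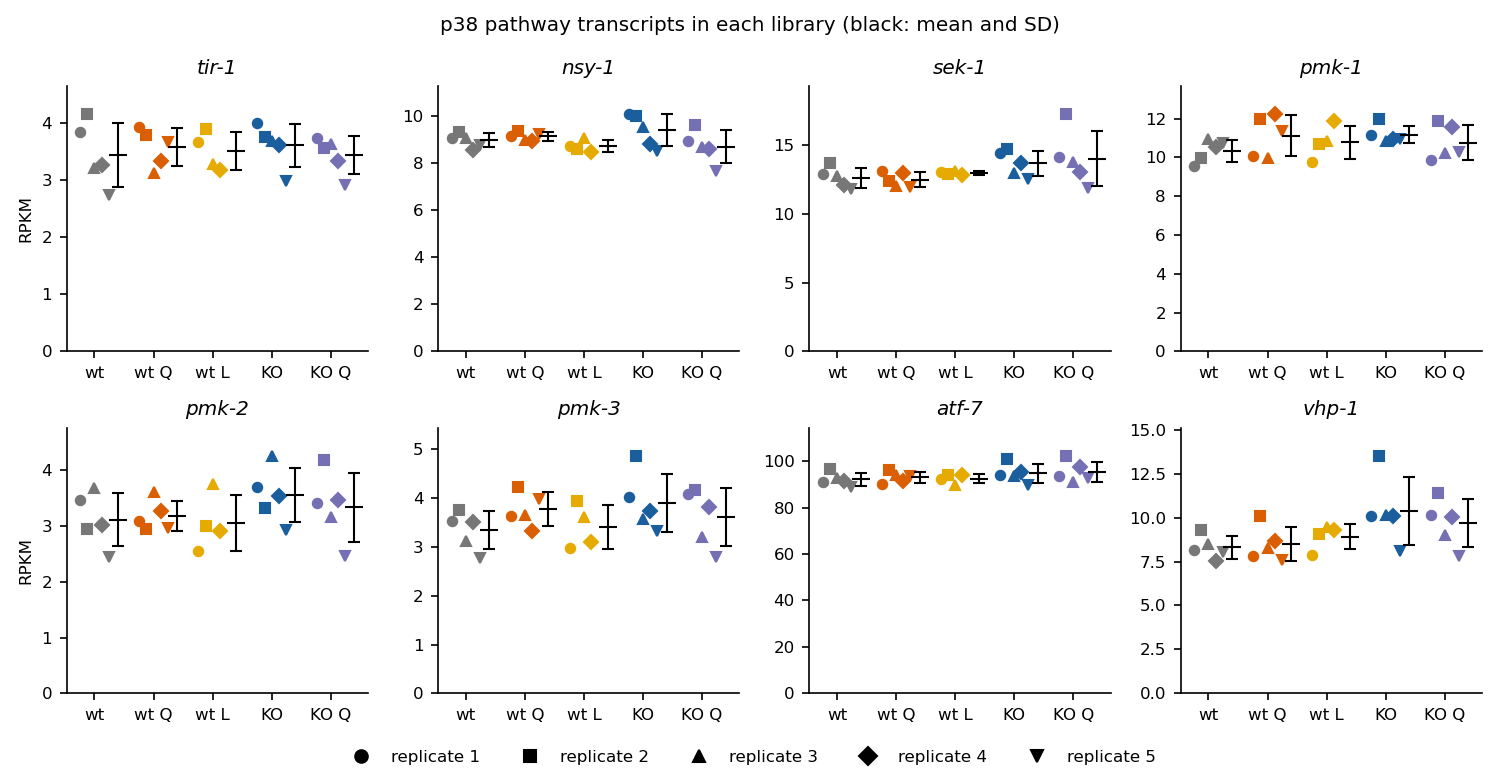
RPKM of the 8 pathway genes in each of the 24 libraries (wt, untreated wild type; Q, quercetin; L, lutein; KO, *abl-1* knockout; marker shape, replicate number; black line and bar, mean and SD). The groups overlap for every gene, and *vhp-1* in untreated *abl-1* KO replicate 2 stands at 13.5 RPKM above the other libraries.

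The members also differed in how steady they were within a group. *atf-7* had a within-group SD of 0.05 on the log2 scale, and 7.71% of all tested genes had a smaller one. *nsy-1* followed with 0.08 and *pmk-1* with 0.10, whereas *pmk-2* had the widest spread with 0.19. The low members rest on fewer reads, with a median of about 165 estimated reads per library for *pmk-2* and 225 for *pmk-3* against 8629 for *atf-7*. On build WBcel235, *tir-1* lies on chromosome III from base 3869590 to 3901642 and *atf-7* on the same chromosome from 4491627 to 4499045, both on the reverse strand. *nsy-1* (bases 5022757 to 5029999) and *vhp-1* (5323276 to 5340829) lie on the forward strand of chromosome II, and *sek-1* on that of chromosome X from 7816734 to 7821036. The strand setting of the counting is not given in the sources used here, so reads of overlapping genes may be shared: *nsy-1* overlaps *wdr-83* and F59A6.13, *sek-1* overlaps R03G5.6, *atf-7* overlaps C07G2.4 and C07G2.5, *vhp-1* overlaps *anr-54* and F08B1.8, and *tir-1* overlaps a piRNA gene, while the *pmk* genes overlap no annotated gene.

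The 3 p38 kinase genes lie side by side on the forward strand of chromosome IV (build WBcel235). *pmk-3* spans bases 8139219 to 8143154, *pmk-2* bases 8143500 to 8148648 and *pmk-1* bases 8148794 to 8151266, with 345 bases between the first pair and 145 between the second. Such closely packed genes are in *C. elegans* often transcribed together as an operon. *pmk-1*, the most downstream gene, was the most abundant in all 24 libraries. Its RPKM was 2.56 to 4.40 times that of *pmk-2* (median 3.37) and 2.42 to 3.88 times that of *pmk-3* (median 2.96). *pmk-2* and *pmk-3* were close to each other, with a ratio between 0.69 and 1.19, and *pmk-2* was the higher one in 4 of 24 libraries.

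**Figure D2:**
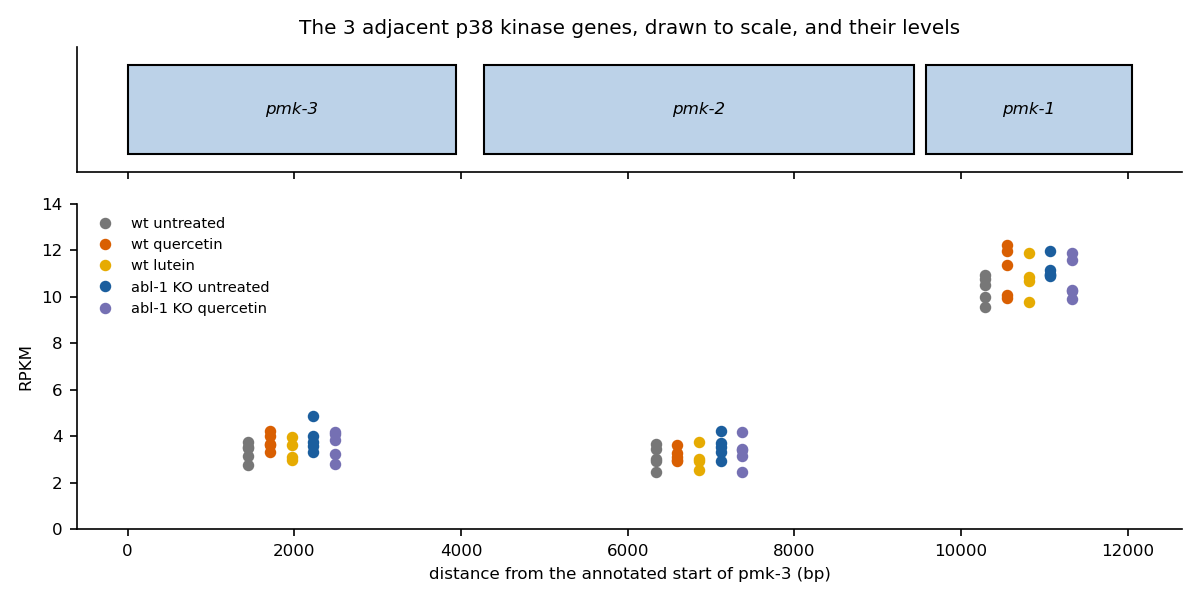
The neighbouring genes *pmk-3*, *pmk-2* and *pmk-1* drawn to scale against the distance from the annotated start of *pmk-3*, with the RPKM of each library below (colours, the 5 groups). *pmk-1* lies between 9.56 and 12.2 RPKM in all groups, above *pmk-2* and *pmk-3*, which both stay under 5 RPKM.

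These ratios did not measurably depend on treatment or strain. The largest of 12 differences was in *pmk-2*/*pmk-3* under quercetin in wt, where the mean log2 ratio was -0.25 ± 0.23 (SD, n = 5) against -0.11 ± 0.22 (n = 5) in untreated animals (two-sided exact permutation p = 0.349, adjusted p = 0.913 over 12). In the *abl-1* KO, *pmk-1*/*pmk-3* had a mean log2 ratio of 1.53 ± 0.16 against 1.64 ± 0.24 in wt (n = 5 each, exact permutation p = 0.413). All 12 adjusted values were 0.913, and a ratio of one gene to another would not show a change that both shared.

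In wt animals no pathway transcript differed measurably between quercetin and untreated. With limma and Benjamini-Hochberg adjustment over all tested genes, 0 of the 8 members passed an adjusted p of 0.05, as did 0% of all genes; an unadjusted p up to 0.05 was reached by 0 members and by 1.35% of all genes. The groups of 0 members and of 0.329% of all genes did not overlap. *pmk-1* was at 10.1, 12.0, 9.96, 12.2 and 11.4 RPKM on quercetin and at 9.56, 9.98, 10.9, 10.5 and 10.8 RPKM in untreated animals. 3 of the 5 quercetin libraries exceeded every untreated one and the other two lay among them. The difference was 0.09 in log2(RPKM + 0.5), with a 95% interval from -0.04 to 0.23 (SE 0.06, exact permutation p = 0.206).

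*pmk-3*, a p38 kinase known for axon regeneration and synapse formation, had the largest difference of the members under quercetin, 0.16 with an interval from -0.07 to 0.38. It was at 3.63, 4.23, 3.64, 3.33 and 3.98 RPKM on quercetin and at 3.52, 3.76, 3.12, 3.50 and 2.78 RPKM without it. The groups overlapped, with 2 quercetin libraries above all untreated ones. *atf-7* had the narrowest interval, from -0.05 to 0.08, and the upstream genes *tir-1* (0.05), *nsy-1* (0.03) and *sek-1* (-0.02) had differences smaller than 1 SE. Counting direction alone, 7 of 8 members were above untreated, as were 54.11% of all tested genes, with a median of 0.03 for the members and 0.01 for all genes.

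Lutein in wt animals gave differences of a similar size, and again 0 members and 0% of all genes passed. No member reached an unadjusted p of 0.05, which 1.64% of all genes did, and the groups of 0 members and of 0.822% of all genes did not overlap. The mean was above untreated for 6 members, or 5 with median-of-ratios or upper-quartile scaling, and for 57.11% of all genes. The lutein group held replicates 1 to 4, while untreated wt also held replicate 5, the replicate of lowest mean for most members. In an alternative fit with replicate number as a block, *tir-1* (-0.010), *pmk-3* (-0.017) and *atf-7* (-0.0051) were below untreated. The largest difference was in *vhp-1*, the phosphatase that switches off JNK-type and p38 kinases in the worm, with 0.10 and an interval from -0.13 to 0.33. It was at 7.88, 9.05, 9.49 and 9.28 RPKM on lutein and at 8.18, 9.27, 8.498, 7.53 and 8.02 RPKM in untreated animals, and 2 lutein libraries were above all untreated ones. *sek-1* lay at 12.84 to 13.1 RPKM in all 4 lutein libraries, while replicate 5, absent on lutein, was its lowest library in each of the 4 other groups.

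Quercetin and lutein, compounds of unrelated structure given at the same dose and for the same time, were also set against each other, in 1 pair and for the 8 members. 0 members and 0% of all genes passed, 0 members and 1.4% of all genes had an unadjusted p up to 0.05, and 0 members and 0.626% of all genes had groups that did not overlap. The mean was higher on quercetin for 6 members and for 47.76% of all genes. The largest difference was 0.13 higher on quercetin for *pmk-3*, with an interval from -0.10 to 0.37, and the narrowest interval was that of *atf-7*, from -0.06 to 0.08. *nsy-1* was at 9.14, 9.35, 8.96, 8.91 and 9.23 RPKM on quercetin and at 8.72, 8.58, 9.05 and 8.47 RPKM on lutein. For this gene 3 of 5 quercetin libraries exceeded all those on lutein (difference 0.06, interval -0.05 to 0.18). The unadjusted exact permutation p was 0.0476, and the adjusted p was 1.00 with limma. The smallest exact p that 5 against 4 libraries allow is 0.0159, and 0.00794 for 5 against 5.

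In untreated animals lacking *abl-1* all 8 members had a mean above wt, but the differences were small and 0 of 8 passed the test. Of all tested genes, 0.478% passed, 0.313% with a higher and 0.164% with a lower level, and 62.17% had a mean above wt. The groups of 0 members did not overlap, which was so for 2.09% of all genes. The median difference of the members was 0.11 in log2(RPKM + 0.5) and that of all tested genes 0.03. All 8 stayed above wt with median-of-ratios and with upper-quartile scaling (median 0.09 under each), and without the sperm-rich untreated *abl-1* KO replicate 2 and wt replicate 4 on quercetin (median 0.08). The intervals of 7 members included 0.

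*vhp-1* had the largest difference of the 8. It was at 10.1, 13.5, 10.1, 10.1 and 8.09 RPKM in the untreated *abl-1* KO and at 8.18, 9.27, 8.498, 7.53 and 8.02 RPKM in wt. 4 of 5 knockout libraries exceeded every wt library, and the fifth lay among them. The difference was 0.29 (interval 0.07 to 0.51, SE 0.11), a fold of 1.22, with an unadjusted p of 0.0119 and an adjusted p of 0.314 with limma, where 11.06% of all genes had an unadjusted p up to 0.05. In the alternative fit that took replicate number as a block, *vhp-1* was 1 of 466 genes that passed among 12771 tested, against 61 in the main fit. The two-sided exact permutation p of *vhp-1*, not adjusted over members or comparisons, was 0.0317. Replicate 2, the library richest in sperm transcripts, was also the highest in *vhp-1*, and without it the difference was 0.20 with an adjusted p of 0.817; the part of sperm RNA in it was not tested.

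*pmk-1* was at 11.2, 12.0, 10.9, 10.9 and 11.0 RPKM in the untreated *abl-1* KO, where 3 libraries exceeded every wt library and the sperm-rich replicate 2 was the highest. The difference was 0.11 (interval -0.03 to 0.24, adjusted p = 0.551 with limma, unadjusted exact permutation p = 0.0238). *sek-1*, its activating kinase, was at 14.4, 14.7, 12.9, 13.7 and 12.5 RPKM against 12.9, 13.7, 12.7, 12.1 and 11.8 RPKM in wt, a difference of 0.11 (interval -0.03 to 0.25). *pmk-3* differed by 0.19 and *pmk-2* by 0.17, with wider intervals from -0.03 to 0.42 and from -0.07 to 0.41. *tir-1* (0.07), *nsy-1* (0.06) and *atf-7* (0.04) were nearest to wt. The intervals of all members in both strains are drawn side by side in the plot of differences.

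**Figure D3:**
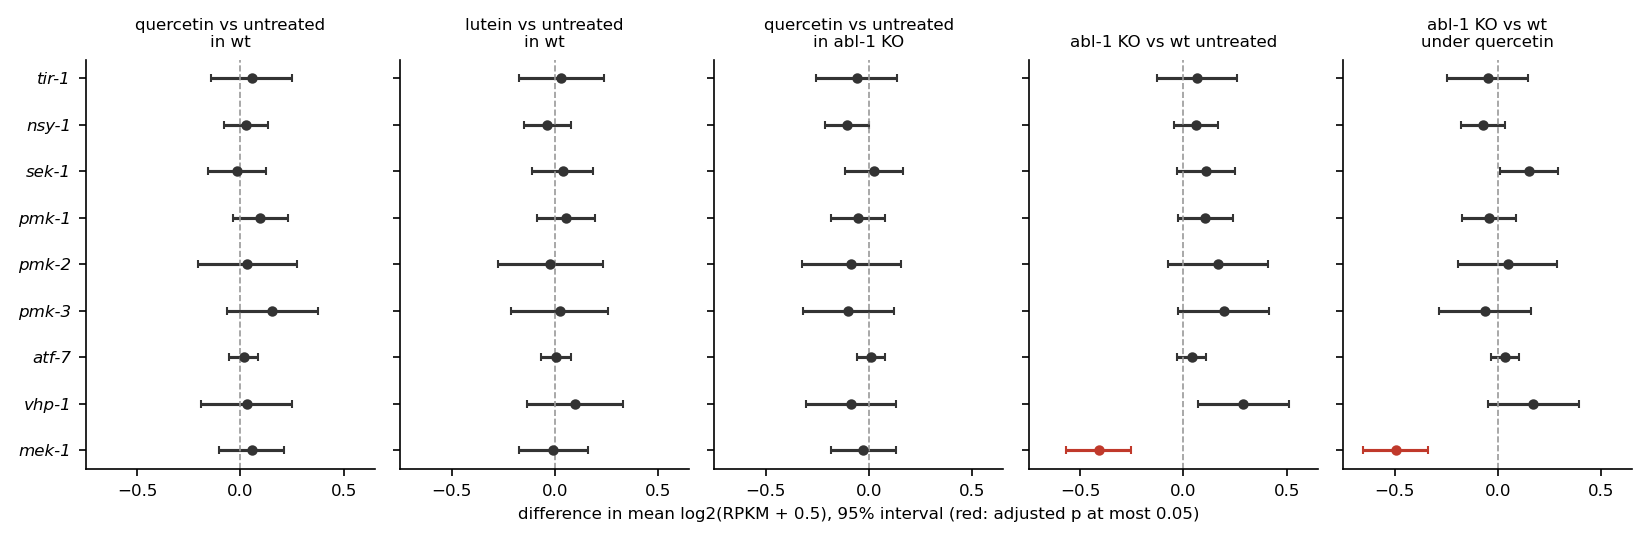
Difference in mean log2(RPKM + 0.5) with its 95% interval for the 8 pathway genes and for the MAP kinase kinase *mek-1* in 5 comparisons (red, adjusted p at most 0.05; black, above it). No pathway gene is red, while *mek-1* lies at -0.41 and -0.49 in the comparisons of *abl-1* KO with wt.

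Under quercetin the same comparison of strains gave no common direction, with 4 of 8 members above wt where 58.48% of all genes were above. 0 members and 0.485% of all genes passed, the latter 0.29% with a higher and 0.196% with a lower level. 1 member, *sek-1*, and 8.18% of all genes had an unadjusted p up to 0.05, and the groups of 0 members and of 1.68% of all genes did not overlap. *sek-1* was at 14.1, 17.2, 13.7, 13.1 and 11.8 RPKM in the *abl-1* KO and at 13.1, 12.3, 12.0, 12.9 and 11.9 RPKM in wt. 3 knockout libraries exceeded every wt one, replicate 2 by far, and the lowest knockout library was below all of them. The difference was 0.15 (interval 0.01 to 0.29, adjusted p = 0.568 with limma, exact permutation p = 0.119). *vhp-1* was again higher in the *abl-1* KO, at 10.2, 11.4, 9.01, 10.0 and 7.79 RPKM against 7.84, 10.1, 8.27, 8.68 and 7.61 RPKM in wt, with overlapping groups and a difference of 0.17 (interval -0.05 to 0.39).

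Within the *abl-1* KO, 6 of 8 members were below the untreated mean on quercetin (median -0.07), where 47.08% of all genes were above it. 0 members and 0% of all genes passed, 1 member, *nsy-1*, and 1.82% of all genes had an unadjusted p up to 0.05, and the groups of 0 members and of 0.219% of all genes did not overlap. *nsy-1* was at 8.92, 9.59, 8.65, 8.57 and 7.64 RPKM on quercetin and at 10.0, 9.99, 9.53, 8.81 and 8.52 RPKM without it, with overlapping groups (difference -0.11, interval from -0.21 to just below 0, adjusted p = 1.00 with limma, exact permutation p = 0.159). The comparisons with the untreated *abl-1* KO share those 5 libraries. Without its sperm-rich replicate 2 and wt replicate 4 on quercetin, 3 of 8 members were above the untreated mean on quercetin in the *abl-1* KO (median -0.03). The difference of the quercetin effect between strains was tested as an interaction, in which 0 members and 0% of all genes passed, and 0 members and 1.59% of all genes had an unadjusted p up to 0.05. It was above 0 for 1 member, or 2 with either other scaling, and for 45.86% of all genes. Its largest value was -0.26 for *pmk-3* (interval -0.57 to 0.06), followed by -0.15 for *pmk-1* (interval -0.34 to 0.04). Over all 5 groups together, an F test passed for 0 members and for 0.697% of all genes, and the smallest adjusted p among the members was 0.71 for *vhp-1*. An unadjusted p up to 0.05 was reached by 0 members and by 7.63% of all genes.

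The other MAP kinase cascades of the worm were read from a list of 20 genes, of which 18 were tested. Between the strains 1 of them passed untreated and 1 under quercetin, both times *mek-1*, where 0.478% and 0.485% of all tested genes passed. None passed in the other comparisons. An unadjusted limma p up to 0.05 was reached by 3 of the 18 untreated and by 2 under quercetin, against 11.06% and 8.18% of all genes. MEK-1 is a MAP kinase kinase of the JNK-like KGB-1 cascade that also contributes to PMK-1 activation. It was at 65.9, 72.9, 84.6, 82.4 and 77.6 RPKM in the untreated *abl-1* KO and at 99.5, 89.2, 108, 102 and 110 RPKM in wt. The *mek-1* groups did not overlap, which was so for 2.09% of all tested genes. The difference of *mek-1* was -0.41 (interval -0.57 to -0.25, adjusted p = 0.00732 with limma), a fold of 0.753.

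Under quercetin *mek-1* was at 64.8, 71.0, 77.2, 82.7 and 79.7 RPKM in the *abl-1* KO, again below every wt library (difference -0.49, adjusted p = 0.000757 with limma). In this comparison the groups of 1.68% of all tested genes did not overlap. At about 100 RPKM in wt, *mek-1* was more abundant than *sek-1*, the MAP kinase kinase of the p38 pathway. The gene lies on chromosome X from base 7479248 to 7481005, with 335728 bases to *sek-1* and 3124821 bases to *abl-1* on the same chromosome. Next in this list by adjusted p in the untreated *abl-1* KO were *jnk-1*, a JNK kinase, with 0.33 (adjusted p = 0.264), and *mkk-4*, a kinase of the PMK-3 pathway in neurons, with 0.19 (adjusted p = 0.299).

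Of 18 genes that feed or assist the p38 pathways, 16 were tested and 0 passed in any comparison. In the untreated *abl-1* KO 13 of 16 were above wt, with a median of 0.10, and 3 had an unadjusted p up to 0.05, against 62.17% and 11.06% of all tested genes. The smallest adjusted p values were those of *nsy-4*, a claudin-like protein upstream of NSY-1 in neurons (0.38, adjusted p = 0.294), *sta-2*, a STAT-like factor of the epidermal defence (0.38, adjusted p = 0.339), and the phospholipase C gene *plc-3* (0.12, adjusted p = 0.380). Of the tissue markers in this comparison, 5 of 5 intestinal, 6 of 6 neuronal, 3 of 3 tested epidermal and 3 of 4 muscle markers were above wt, while 2 of 3 germline and 3 of 4 oocyte markers were below it (medians -0.07 and -0.02). All 28 tested sperm markers were above wt, with a median of 0.77. None of these markers passed, and 2 of the germline markers had an unadjusted p up to 0.05. The summed level of the neuronal markers was 156 to 173 RPKM in the untreated *abl-1* KO and 150 to 160 in wt, and that of the epidermal markers 63.7 to 70.5 against 59.8 to 64.8. Their part in the differences of the members was not tested.

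The readouts of the pathway were read from 2 lists. Of 6 epidermal peptide genes, 5 were above wt in the untreated *abl-1* KO, with a median of 0.53, and 0 passed the test, while 3 had an unadjusted p up to 0.05. Of all tested genes, 62.17% were above wt and 11.06% had such a p. The calls of *nlp-31* and *nlp-29* changed with the replicate number as a block, a setting that called 466 genes instead of 61. *nlp-31* was at 25.7, 50.5, 22.0, 25.1 and 22.7 RPKM in the knockout and at 15.4, 23.0, 14.3, 13.2 and 18.7 RPKM in wt, so that 3 of 5 knockout libraries were above every wt library. The difference was 0.72 (SE 0.23, adjusted p = 0.216 with limma).

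*nlp-29*, the peptide gene that is most used to follow the epidermal response, was at 22.3, 49.5, 17.5, 18.2 and 22.5 RPKM against 12.0, 24.3, 13.4, 12.4 and 14.5 RPKM, with overlapping groups (0.68, adjusted p = 0.380). *nlp-30* differed by 0.65 (adjusted p = 0.441). Without untreated *abl-1* KO replicate 2 and wt replicate 4 on quercetin, 4 of 6 peptide genes were above wt and the median was 0.34. *nlp-34*, a low gene with 0.97 to 4.87 RPKM over the libraries, passed under quercetin once those 2 libraries were left out. The share of all genes that passed in that setting is not given here. With all libraries, the median under quercetin was 0.54, and 5 of 6 were above wt, where 58.48% of all tested genes were above. Of the 6, 0 passed and 3 had an unadjusted p up to 0.05, against 0.485% and 8.18% of all tested genes.

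Of 10 intestinal genes known to need PMK-1, 9 were in the table under the names used and 8 were tested, since *irg-6* was below the filter. 0 passed in any comparison, and 0 had an unadjusted p up to 0.05. On lutein 8 of 8 were below untreated wt, with a median of -0.32, where 57.11% of all tested genes were above. The differences were -0.33 for *clec-85*, a C-type lectin gene (adjusted p = 1.00), -0.30 for K08D8.5 and -1.30 for *irg-5*, an infection response gene, whose SE was 0.88. In the untreated *abl-1* KO 5 of 8 were below wt, or 6 with median-of-ratios scaling, with a median of -0.17.

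**Figure D4:**
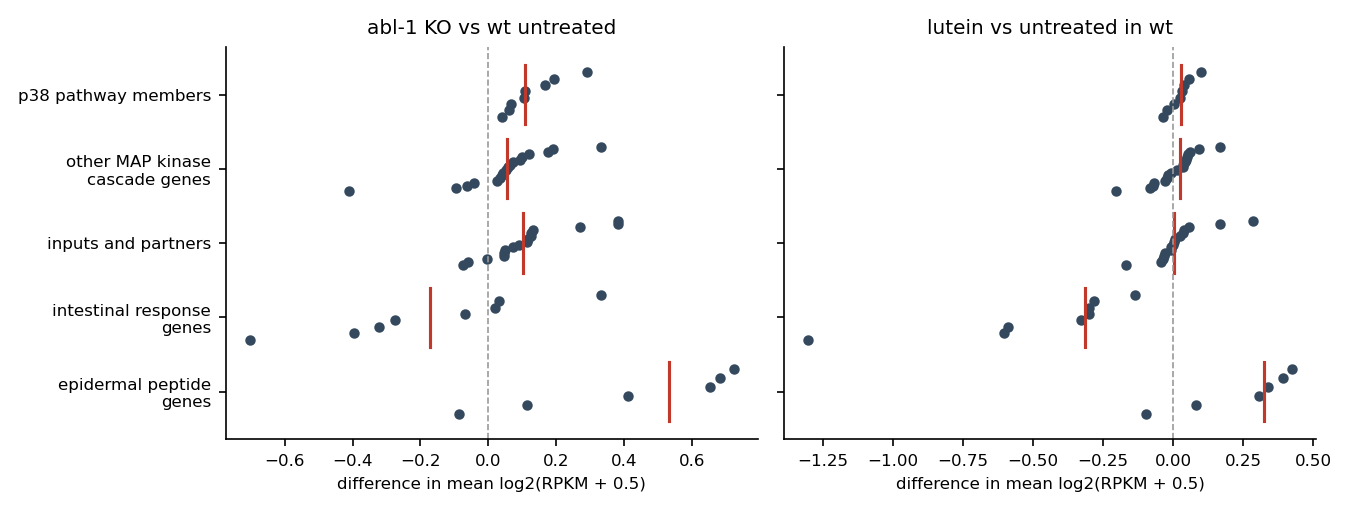
Difference in mean log2(RPKM + 0.5) for each tested gene of the pathway and of the 4 related lists (points), with the median of each list (red line), in untreated *abl-1* KO against wt and in lutein against untreated wt. The epidermal peptide genes have a median of 0.53 on the left and the intestinal response genes a median of -0.32 on the right, and *mek-1* is the lowest point of its list at -0.41 on the left.

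The intestinal readouts differed by replicate number, though their variation was not divided between replicate number and group. *irg-5* lay between 2.14 and 4.55 RPKM in all 10 libraries of replicates 1 and 2, whatever the strain or treatment. In replicates 3 to 5 it lay between 10.1 and 40.5 RPKM in 13 of 14 libraries. In the remaining one, lutein replicate 3, it was at 2.63. Within these replicates *irg-5* was lower in the untreated *abl-1* KO (10.1 to 12.1 RPKM) than in untreated wt (23.5 to 40.5). On quercetin the ranges overlapped, with 10.7 to 21.7 RPKM in the *abl-1* KO and 19.1 to 26.6 in wt. In replicates 1 and 2 the untreated *abl-1* KO was above wt at each number. This split by strain within replicate sets was read after the values were seen and was not tested. The medians by replicate number were lower in replicates 1 and 2 than in replicates 3, 4 and 5 for all 8 tested genes of the list. *clec-67*, for instance, had medians of 1.16 and 0.55 RPKM in replicates 1 and 2 and of 5.12, 5.18 and 3.91 RPKM in replicates 3, 4 and 5. The ranges of *irg-4* overlapped, with 9.61 to 16.9 RPKM in replicate 1 and 10.3 to 15.8 RPKM in replicate 3.

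The lutein group therefore held 3 low libraries of 4 in *irg-5*, and the untreated wt group 2 of 5. With a term for replicates 1 and 2 in the fit, chosen after these values were seen, 8 of 8 intestinal genes were below untreated on lutein and the median was -0.27, with 0 passing. That term does not take out lutein replicate 3, and the list was not read without that library. The 8 genes were measured in the same 4 lutein libraries, so their shared direction is not 8 separate results. The labels do not say what the replicate numbers stand for.

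Members of the pathway also varied with replicate number. Replicate 5 had the lowest mean for 7 of 8 members, with *pmk-1* as the exception, and replicate 2 the highest for *nsy-1*, *sek-1*, *pmk-3*, *atf-7* and *vhp-1*. *tir-1* averaged 3.84 and 3.83 RPKM in replicates 1 and 2 and 3.39, 3.35 and 3.08 in replicates 3, 4 and 5. In each of the 5 groups its highest library was replicate 1 or 2. *pmk-3* and *atf-7* were highest in replicate 2 in 5 of 5 groups and *vhp-1* in 4 of 5, whereas *pmk-2* was highest in replicate 3 in 4 of 5. *pmk-1* was lowest in replicate 1 in 3 of 5 groups. *nlp-29* had its highest library in replicate 2 in every group.

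**Figure D5:**
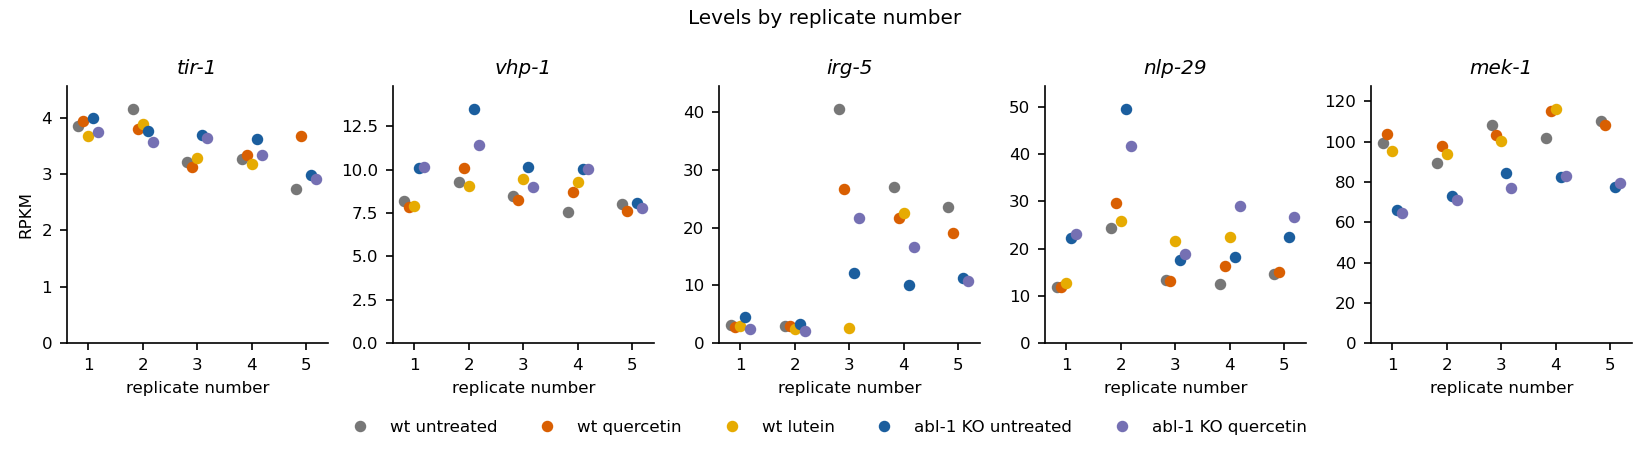
RPKM of *tir-1*, *vhp-1*, *irg-5*, *nlp-29* and *mek-1* against replicate number (points, single libraries; colours, the 5 groups). *irg-5* stays under 5 RPKM in replicates 1 and 2 in all groups, *nlp-29* peaks in replicate 2, and *mek-1* separates the *abl-1* KO (64.8 to 84.6 RPKM) from wt (89.2 to 116 RPKM) at each number.

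Within the replicate sets the difference of *vhp-1* between untreated *abl-1* KO and wt had the same direction, with 0.40 in replicates 1 and 2 and 0.22 in replicates 3 to 5. That of *pmk-1* was 0.23 in the first set and 0.02 in the second, and that of *tir-1* was -0.04 and 0.14.

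Across the 24 libraries the members tended to vary in the same direction, with 27 of 28 pairwise correlations above 0 and a median Pearson r of 0.51. Pairs among all tested genes were not computed, so it is not known whether this is particular to the pathway. The libraries share groups, replicate numbers and sperm content, so the values describe these libraries only. The closest pair was *atf-7* and *vhp-1* (r = 0.76), then *sek-1* and *vhp-1* (r = 0.74). *pmk-1* had r = 0.49 to *vhp-1*, 0.44 to *atf-7*, 0.27 to *nsy-1*, 0.22 to *sek-1* and -0.13 to *tir-1*. To its neighbours *pmk-3* and *pmk-2* it had r = 0.32 and 0.20.

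For each member the 3 genes of most similar pattern among all tested genes were sought by Pearson r over the 24 libraries. *vhp-1* had the closest ones, with *catp-3* (r = 0.93), *ttr-27* (0.91) and *math-3* (0.90). *sek-1* was followed by T01E8.8 and *dnj-20* (both 0.92) and *kin-2*, a regulatory subunit of protein kinase A (0.91). *pmk-1* was most like *iglr-2*, *sem-5* and *fbxb-92* (0.87 each), and *atf-7* most like W02B12.11 (0.89), *nud-2* (0.88) and *unc-94* (0.86).

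*pmk-3* was closest to *twk-8* and *tmd-2* (both 0.86) and *pde-2* (0.84). *tir-1* was closest to C16B8.3 (0.87), *lact-4* (0.86) and *siah-1* (0.84), and *nsy-1* to *ver-3* (0.81), *unc-129* and C48E7.6 (0.80 each). *pmk-2* had the least similar ones, with C36B7.6 (0.78), E04F6.4 (0.75) and T04F8.6 (0.74). No member was among the 3 most similar genes of another.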

How the data were processed

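The authors trimmed single-end stranded messenger RNA reads and mapped them to the *C. elegans* genome (WBcel235) in CLC Genomics Workbench after demultiplexing with bcl2fastq 2.20.0.422, and deposited RPKM per gene and library. RPKM carries no counts, so depth was estimated from the steps of low values, where 47.7 to 57.3% per library came within 0.1 of whole reads (20% if random), and no count test was used. Groups were taken from the labels. Genes with at least 0.5 RPKM in at least 4 libraries were tested on log2(RPKM + 0.5), which understates changes of low genes, with limma 3.58.1 in R 4.3.3 (variance trend, all 24 libraries in 1 fit, Benjamini-Hochberg over 12771 genes, threshold 0.05). Single values also received two-sided exact permutation tests in Python 3.11.15. Those of members were not adjusted over members or comparisons and were not run over all genes. The fit was tested on simulated data. Positions came from annotation release 115 of the same build, whereas the authors' mapping used an earlier one, and 18868 of 20191 names matched. Named genes were the members, listed genes past the threshold, up to 3 listed genes of smallest adjusted p and the 3 most similar genes per member. *irg-5* and *clec-67* by replicate number and *nlp-29* by replicate number were chosen after their values were seen. Members and lists were chosen with earlier results of these data known. Pseudocount, filter, scaling, variance trend, adjustment, replicate block, libraries in the fit and each library left out were varied. Replicate numbers were not taken to pair libraries.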

Additional observations from a re-analysis of the deposited data

Results flagged for a closer look

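Within the 40 combinations of a member and a group, 1 library lay apart from its group by Dixon's ratio at the 95% level, where chance gives about 1 in 20. *pmk-1* in untreated *abl-1* KO replicate 2 was at 12.0 RPKM, and the other 4 libraries of that group lay between 10.9 and 11.2 RPKM. The library is the one richest in sperm transcripts.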

How the results depend on the processing

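With the replicate number as a block, 466 genes instead of 61 were called in untreated *abl-1* KO against wt, 252 instead of 62 on quercetin and 567 instead of 89 over all groups. 1 member, *vhp-1*, was called in the first (difference 0.29, adjusted p = 0.0249 with limma) and 1, again *vhp-1*, over all groups (F 6.57, adjusted p = 0.0432), and no other member was called under the block. Of the epidermal genes, *nlp-29* and *nlp-31* were called under the block in both comparisons of strains. The labels give no meaning to the numbers. The log2 level of each gene was set against its group mean, and these deviations were correlated between same-numbered libraries. The 46 correlations ran from -0.61 to 0.67, with a median of 0.32. By these deviations 15 of 24 libraries were closest to one of the same number among the other groups (about 5.05 by chance). This is a hint of pairing from the data and not from the design. The block turned the lutein differences of *tir-1*, *pmk-3* and *atf-7* to -0.010, -0.017 and -0.0051.

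For the same 3 tests, a term for replicates 1 and 2 against 3 to 5, added after the data were seen, called 266, 168 and 390 genes, Bonferroni adjustment 28, 29 and 40, and replicates 1 and 2 alone 11, 14 and 16, where fewer libraries entered. With only the compared libraries 39 and 41 genes were called for the strains, and without a filter 1 gene for quercetin in wt. None of these settings called a member. Of 1408 alternative member differences, 1335 kept direction and call, 72 changed sign and 1 passed. The largest difference that changed sign was 0.12 in size.

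Median-of-ratios scaling turned for lutein in wt *atf-7* to -0.0052, and for the interaction *atf-7* to 0.0022. Upper-quartile scaling turned for lutein in wt *atf-7* to -0.0022, and for the interaction *atf-7* to 0.0040. Leaving out the sperm-rich wt quercetin replicate 4 and untreated *abl-1* KO replicate 2 together turned for quercetin in *abl-1* KO *vhp-1* to 0.0069, and for the interaction *atf-7* to 0.010. Replicates 1 and 2 alone turned for quercetin in wt *tir-1* to -0.043, *pmk-2* to -0.071, *atf-7* to -0.0093, and for lutein in wt *tir-1* to -0.071, *sek-1* to -0.031, *pmk-3* to -0.076, *atf-7* to -0.0093, *vhp-1* to -0.042, and for quercetin against lutein *vhp-1* to 0.073, and for quercetin in *abl-1* KO *pmk-2* to 0.094, and for untreated *abl-1* KO against wt *tir-1* to -0.039, and for *abl-1* KO against wt on quercetin *nsy-1* to 0.00085, *pmk-3* to 0.063, and for the interaction *pmk-2* to 0.17, *atf-7* to 0.013. Replicates 3 to 5 alone turned for quercetin in wt *sek-1* to 0.0089, and for lutein in wt *pmk-2* to 0.12, and for quercetin against lutein *pmk-1* to -0.024, *pmk-2* to -0.017, and for quercetin in *abl-1* KO *sek-1* to -0.021, and for *abl-1* KO against wt on quercetin *pmk-2* to -0.11, and for the interaction *sek-1* to -0.030.

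With 1 library left out at a time, differences crossed 0 within these ranges: for quercetin in wt *sek-1* -0.040 to 0.010, *vhp-1* -0.031 to 0.068, *pmk-2* -0.037 to 0.088, *tir-1* -0.014 to 0.12, and for lutein in wt *pmk-2* -0.11 to 0.048, *tir-1* -0.037 to 0.094, *pmk-3* -0.041 to 0.078, *atf-7* -0.0084 to 0.023, and for quercetin against lutein *tir-1* -0.017 to 0.068, *pmk-1* -0.0050 to 0.084, *pmk-2* -0.015 to 0.14, *atf-7* -0.0056 to 0.021. They also did so for quercetin in *abl-1* KO *vhp-1* -0.17 to 0.0069, *sek-1* -0.050 to 0.081, *atf-7* -0.016 to 0.032, *pmk-2* -0.16 to 0.0038, and for untreated *abl-1* KO against wt *tir-1* -0.0019 to 0.13, and for *abl-1* KO against wt on quercetin *pmk-2* -0.028 to 0.14, *tir-1* -0.090 to 0.0024, *pmk-3* -0.11 to 0.016, and for the interaction *atf-7* -0.031 to 0.017, *sek-1* -0.032 to 0.099. The log2 ratios of *pmk* genes ran for quercetin in wt *pmk-1*/*pmk-2* -0.011 to 0.16, *pmk-1*/*pmk-3* -0.16 to 0.00046, and for lutein in wt *pmk-1*/*pmk-3* -0.058 to 0.11, *pmk-2*/*pmk-3* -0.12 to 0.034, and for quercetin in *abl-1* KO *pmk-2*/*pmk-3* -0.088 to 0.11, *pmk-1*/*pmk-2* -0.046 to 0.10, *pmk-1*/*pmk-3* -0.016 to 0.14, and for untreated *abl-1* KO against wt *pmk-2*/*pmk-3* -0.12 to 0.075, *pmk-1*/*pmk-2* -0.15 to 0.015. The cause of these changes was not tested.

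*mek-1* kept its direction and call in 15 alternatives in each comparison of strains (-0.46 to -0.36 untreated, -0.53 to -0.44 on quercetin). Without untreated *abl-1* KO replicate 2 the adjusted p of *vhp-1* was 0.817. Depth limits *pmk-2* and *pmk-3*, where counting error alone was about 7.80% and 6.67% of a value.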
